A study of Mus musculus with 96 samples.

Results

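Acyl-CoA thioesterases cut activated fatty acids (acyl-CoAs) into free fatty acid and coenzyme A. The 9 genes described here are Acot1, Acot2, Acot3, Acot4, Acot8, Acot9, Acot11, Acot12 and Acot13, out of 25095 gene symbols measured. They were chosen by family name, with earlier results of these data known. Where a gene had several transcripts, the one with the highest mean over a table's libraries stood for it. The libraries are RNA sequencing of hepatocytes and of liver macrophages (LMs) from male C57BL/6J mice fed a high fat and sucrose diet for 4 weeks, taken at zeitgeber times ZT4, ZT10, ZT16 and ZT22 (hours after lights on). There are 48 libraries of each cell type, 3 for each genotype and time. Control mice were floxed animals given an adeno-associated virus encoding GFP, and the REV-ERB knockout mice received a virus encoding Cre at 8 weeks of age, both driven by the hepatocyte-specific TBG promoter. RevDKO (Reverb-hDKO) mice lacked both REV-ERB genes in hepatocytes, Nr1d1 for REV-ERBα and Nr1d2 for REV-ERBβ, transcriptional repressors of the clock, and RevScapTKO (Reverb/Scap-hTKO) mice additionally lacked Scap, whose product escorts the SREBP lipid regulators to their site of activation. ScapKO mice are labelled as lacking hepatocyte Scap alone. How they were made is not given in the sources used here. All groups shared the diet, and LMs were not the target of Cre in RevDKO or RevScapTKO mice.

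The family holds unrelated protein folds with a common reaction. Acot1 to Acot6 are the type I enzymes, a cluster of near copies on 1 chromosome whose products differ by compartment: ACOT1 is cytosolic, ACOT2 is mitochondrial, and ACOT3 and ACOT4 are peroxisomal, ACOT4 acting on succinyl-CoA and other dicarboxylic acyl-CoAs. The type II enzymes are structurally distinct and include ACOT8 in peroxisomes, ACOT9 in mitochondria, ACOT11 (also called THEM1), ACOT12, a cytosolic acetyl-CoA hydrolase, and ACOT13 (also called THEM2), which binds phosphatidylcholine transfer protein. In liver several type I genes are textbook targets of PPARα, the fatty acid receptor that is active in fasting.

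The type I genes lie head to tail on mouse chromosome 12. In the mm9 build used by the files Acot2 spans chr12:85328811-85334825, Acot1 chr12:85350452-85358619, Acot4 chr12:85379329-85385673 and Acot3 chr12:85393094-85401350, all on the plus strand. Acot8 lies at chr2:164618268-164630381 on the minus strand, Acot9 at chrX:151696986-151732197 on the plus strand, and Acot11 at chr4:106417166-106472436 on the minus strand. Acot12 lies at chr13:91881126-91925753 on the plus strand and Acot13 at chr13:24909824-24923358 on the minus strand.

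How far the type I genes can be told apart by short reads depends on their sequence, so the mm9 transcripts were compared. The coding sequences of Acot1 and Acot2 were identical at 1180 of 1239 aligned bases (95.2%). Acot1 shared 83.9% with Acot3 and 77.3% with Acot4. Of all stretches of 50 bases in the Acot1 transcript, 47.3% also occurred in another gene, always one of Acot2 to Acot6. The share was 27.6% for Acot2, 14.4% for Acot3 and 12.1% for Acot4. Acot9 shared 20.2% of its stretches with Acot10, a copy without introns that is 97.2% identical in its coding sequence. No stretch of Acot8, Acot11, Acot12 or Acot13 occurred in another gene. Acot8 overlaps Snx21 by 3 bases and Acot12 overlaps 4833422C13Rik by 352 bases, both on the opposite strand. How the counting treated reads that match several genes is not given in the sources used here, so the levels of Acot1 to Acot4 and of Acot9 are uncertain to the extent of these shares. The first sequence shows such a shared stretch, 60 bases of coding exon 1 of Acot1 (chr12:85350654-85350713, mm9, plus strand) that are the same in all 6 type I genes.

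Acot1 to Acot6: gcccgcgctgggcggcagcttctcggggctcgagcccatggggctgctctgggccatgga

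The least alike stretch of 60 bases lies in coding exon 3 (chr12:85358133-85358192 in Acot1, mm9, plus strand). Capitals mark bases that differ from Acot1. Acot2 still matched Acot1 at every base here, whereas Acot3 and Acot4 each differed at 19.

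Acot1: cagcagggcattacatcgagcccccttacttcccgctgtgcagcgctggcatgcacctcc
Acot2: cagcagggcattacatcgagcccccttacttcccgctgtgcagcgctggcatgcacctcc
Acot3: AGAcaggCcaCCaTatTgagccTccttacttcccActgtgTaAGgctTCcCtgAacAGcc
Acot4: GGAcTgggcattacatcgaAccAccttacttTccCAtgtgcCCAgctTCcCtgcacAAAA

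Acot1 and Acot2 were best separated at the first 60 coding bases of Acot1 (chr12:85350460-85350519, mm9, plus strand), where Acot2, which has a longer start that carries its mitochondrial targeting, differed at 10 bases, again in capitals.

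Acot1: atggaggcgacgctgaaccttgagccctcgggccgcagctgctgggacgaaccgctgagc
Acot2: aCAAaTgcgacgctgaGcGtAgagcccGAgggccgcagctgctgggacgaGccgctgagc

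Levels are given in RPKTM, reads per kilobase of transcript per 10000000 reads, which the authors quantile normalized within each of 4 tables, and library depth is unknown. The tables of 36 libraries (Control, RevDKO, RevScapTKO) and the tables of 12 ScapKO libraries were normalized apart and were never tested against each other. The labels were first checked on the targeted genes. In hepatocytes Scap was 395 to 698 RPKTM in Control, 321 to 733 in RevDKO and 82.8 to 299 in RevScapTKO. Nr1d1 was 3.57 to 358 in Control, 39.9 to 359 in RevDKO and 51.2 to 231 in RevScapTKO, and Nr1d2 was 34.2 to 422, 39.2 to 474 and 228 to 450, so reads of the whole transcripts did not mark the deletion of either gene. Npas2, a clock gene that REV-ERBs repress, was at most 58.5 in Control with a median of 1.93, and was 53.6 to 138 in RevDKO and 26.6 to 74.8 in RevScapTKO. The library labelled ScapKO hepatocyte ZT22 replicate 2 went against its label, with Scap at 1006 RPKTM where the other 11 libraries held 205 to 380, and Scd1, an SREBP target, at 75737 where the others held 190 to 2932. The library labelled ScapKO LM ZT22 replicate 2 also stood apart, since its 12 macrophage markers summed to 24574 RPKTM, compared with 89689 to 150099 in the other 11. ScapKO values are therefore given with and without these libraries. Hepatocyte markers averaged 11.2 to 12.4 on the log2(RPKTM + 1) scale in Control LM libraries and macrophage markers 7.90 to 11.1, so the LM libraries also held hepatocyte RNA. In bulk samples fewer cells of a type and less RNA per cell cannot be told apart.

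In Control hepatocytes Acot12 was the most abundant member, with 216 to 471 RPKTM and a mean of 350 ± 71.9 (SD, n = 12). Its lowest library lay above the highest library of every other member. Acot4 followed at 94.0 ± 33.4, Acot1 at 69.3 ± 31.6, Acot13 at 43.2 ± 13.2, Acot3 at 42.0 ± 30.4, Acot11 at 32.8 ± 13.3 and Acot8 at 30.9 ± 5.56 (SD, n = 12 each). Acot2 at 11.5 ± 5.0 and Acot9 at 9.45 ± 2.86 were the lowest. From Acot4 down to Acot8 neighbours in this order overlapped in range, as did Acot2 and Acot9, so their order is not separated by the spread, while every Acot8 value (24.3 to 42.8) lay above every Acot2 value (2.69 to 19.6). Acot5, the fifth type I gene, was listed at 0 in all 36 hepatocyte libraries, while 22.7% of its stretches of 50 bases also occur in other type I genes, and Acot6 reached at most 4.97 RPKTM. The Control library at ZT4 replicate 3 was low for Acot1 (6.92), Acot2 (2.69) and Acot3 (0.841).

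Deletion of the REV-ERBs in hepatocytes was accompanied by lower transcript levels of Acot1, Acot2, Acot3 and Acot4 and a higher level of Acot11. The comparison of RevDKO with Control asks what loss of the clock repressors does to this family. Of 9 members, 4 fell and 1 rose in the limma fit over all 13326 genes tested, averaged over the 4 times. Of all genes 4.43% were called (2.43% lower, 2% higher). The members were chosen with earlier results known, so these shares give scale and are no test of the family. Acot1 to Acot4 share stretches of sequence, so their falls may not be independent. The median difference was -0.39 on the log2(RPKTM + 1) scale for the members and -0.01 for all genes. Of the markers of other liver cells, only Sox9 was called in this comparison, higher by 1.02 ± 0.12 (log2, SE; limma adjusted p = 9.08e-07). Sox9, a cholangiocyte gene, was 8.81 to 27.2 RPKTM in Control and 20.7 to 45.9 in RevDKO, and the other 3 of the 4 cholangiocyte markers (Krt19, Krt7 and Epcam) did not pass the filter on low values. Its part in the differences of the members was not tested.

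Acot3, the peroxisomal long-chain enzyme, had the largest fall. In Control its levels were 12.5, 30.3 and 0.841 RPKTM at ZT4, then 65.1, 86.2 and 99.2 at ZT10. They were 23.6, 33.9 and 64.0 at ZT16 and 34.6, 38.7 and 14.8 at ZT22. In RevDKO they were 0, 1.27 and 0 at ZT4, 0.841, 3.35 and 7.60 at ZT10, 2.6, 5.83 and 5.55 at ZT16, and 0, 0 and 2.18 at ZT22. The genotypes did not overlap at ZT10, ZT16 or ZT22, and the low Control library brought them together at ZT4. The difference was -3.56 ± 0.37 (log2, SE; limma adjusted p = 4.44e-08), and it depended on the constant added before the logarithm, from -2.39 with 5 RPKTM to -4.84 with 0.1.

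Acot1, the cytosolic enzyme, was 74.1, 93.1 and 6.92 RPKTM at ZT4 in Control, 54.6, 35.1 and 35.4 at ZT10, 80.3, 83.1 and 109 at ZT16, and 108, 92.4 and 60.5 at ZT22. In RevDKO it was 7.65, 4.53 and 10.5 at ZT4, 5.55, 18.4 and 13.1 at ZT10, 17.8, 14.7 and 4.56 at ZT16, and 6.73, 8.07 and 4.87 at ZT22. Apart from the low Control library, every Control value lay above every RevDKO value. The RevDKO mean was 14% of the Control mean, and the difference was -2.62 ± 0.30 (log2, SE; limma adjusted p = 2.20e-07).

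Acot4, the peroxisomal enzyme for dicarboxylic acyl-CoAs, was 47.3 to 159 RPKTM in Control with a median of 96.3, and 16.1 to 60.9 in RevDKO with a median of 34.0. The genotypes did not overlap at any of the 4 times. The difference was -1.41 ± 0.21 (log2, SE; limma adjusted p = 3.47e-05), with the RevDKO mean at 37.4% of Control. Acot2, the mitochondrial enzyme, was 2.69 to 19.6 in Control with a median of 11.9, and 1.96 to 7.21 in RevDKO with a median of 3.97. Its difference was -1.22 ± 0.23 (log2, SE; limma adjusted p = 0.000976), and the genotypes did not overlap at 3 of the 4 times. Across all genes 1.55% were lower in RevDKO without overlap at 3 or more times, a criterion met by Acot1, Acot2, Acot3 and Acot4. All 4 calls held when any 1 of the 24 libraries was left out and under each of the 7 other processing choices tried.

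Acot11, a long-chain thioesterase best known from brown fat, went the other way. It was 15.8 to 63.1 RPKTM in Control with a median of 31.4, and 31.3 to 68.0 in RevDKO with a median of 48.2. The RevDKO libraries were all higher than the Control libraries at ZT4, ZT16 and ZT22 and overlapped at ZT10, where 1.33% of all genes were higher without overlap at 3 or more times. The difference of 0.65 ± 0.19 (log2, SE) passed narrowly (limma adjusted p = 0.0420). It no longer passed without a filter on low genes (adjusted p = 0.0870) or when any 1 of 18 of the 24 libraries was left out. Acot11 also overlaps Fam151a on the opposite strand by 3738 bases, and whether counting used the strand is not given in the sources used here.

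The remaining members did not pass. Acot8, the broad peroxisomal enzyme, was 24.3 to 42.8 RPKTM in Control and 11.6 to 29.8 in RevDKO (-0.39 ± 0.17, log2, SE; limma adjusted p = 0.205). Acot13 was 23.7 to 71.6 and 16.5 to 58.2 (-0.33 ± 0.17; limma adjusted p = 0.322). Acot12 was 216 to 471 and 226 to 426 (-0.15 ± 0.10; limma adjusted p = 0.492), and Acot9 was 4.79 to 13.7 and 2.6 to 19.5 (-0.15 ± 0.28; limma adjusted p = 0.856). All 4 differences were negative, and among them that of Acot8 alone had an unadjusted p under 0.05 in limma.

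**Figure D1:**
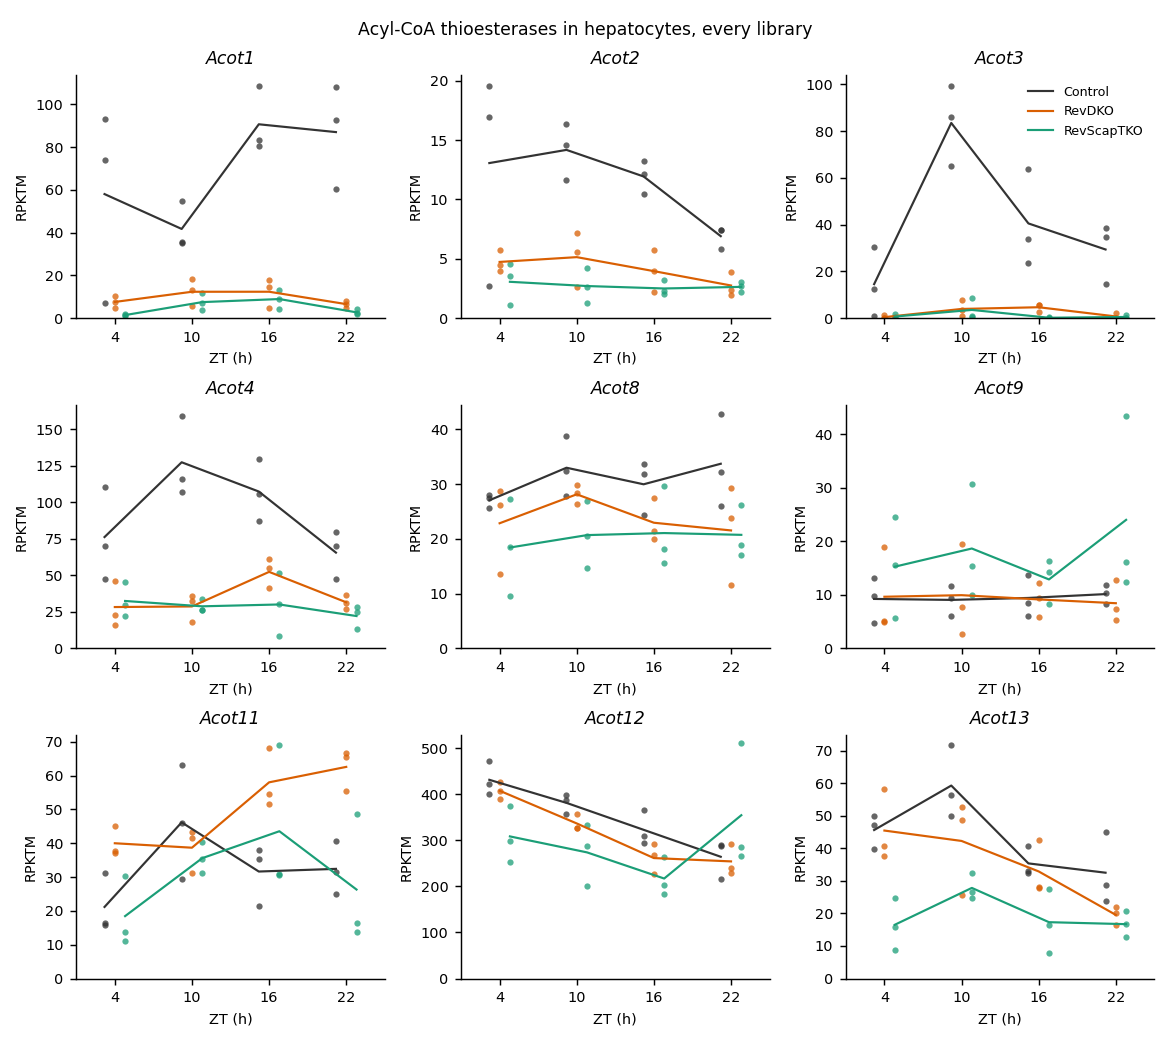
Transcript level (RPKTM, linear axes from 0) of the 9 thioesterases against zeitgeber time in the hepatocyte table, with points for single libraries (3 per genotype and time, genotypes set slightly apart) and lines through the means. Control (dark) lies above RevDKO (orange) and RevScapTKO (green) for Acot1 to Acot4, apart from the Control library at ZT4 with 6.92, 2.69 and 0.841 RPKTM of Acot1, Acot2 and Acot3.

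At single times the REV-ERB comparison called 5 of 36 member and time combinations, all lower. Acot3 fell by 4.34 on the log2 scale at ZT10 and by 4.26 at ZT22 (limma adjusted p = 0.000696 and 0.00316). Acot4 fell by 2.15 at ZT10 (limma adjusted p = 0.00436). Acot1 fell by 2.95 at ZT16 and by 3.52 at ZT22 (limma adjusted p = 0.0122 and 0.00208). No member was called at ZT4, where the low Control library lies. Of all genes 0.173% were called lower at ZT4, 0.495% at ZT10, 0.15% at ZT16 and 0.225% at ZT22. Without that Control library 10 combinations were called.

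Adding the Scap deletion to the REV-ERB deletion was accompanied by lower levels of Acot1, Acot11 and Acot13 and a higher level of Acot9. None of these was called with a macrophage marker level as a covariate, as given below. RevScapTKO against RevDKO asks what hepatocyte SCAP contributes once REV-ERBs are gone. In all, 4 of 9 members were called where 26.2% of all genes were (12.7% lower, 13.5% higher). The median difference was -0.45 on the log2 scale for the members and -0.03 for all genes. Acot13, which works with phosphatidylcholine transfer protein, was 16.5 to 58.2 RPKTM in RevDKO with a median of 32.9, and 7.84 to 32.3 in RevScapTKO with a median of 18.7 (-0.82 ± 0.17, log2, SE; limma adjusted p = 0.000730). Acot11 was 31.3 to 68.0 in RevDKO and 11.2 to 69.1 in RevScapTKO, with a median of 30.8 there (-0.81 ± 0.19; limma adjusted p = 0.00201), so that its level in RevScapTKO was 94.3% of the Control mean. Acot1 was 4.53 to 18.4 and 1.06 to 13.3 (-0.95 ± 0.30; limma adjusted p = 0.0173), a call lost when 5 RPKTM instead of 1 was added before the logarithm (adjusted p = 0.0687). Over all times together the ranges of these 3 genes overlapped between the genotypes.

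Acot9, a mitochondrial enzyme, was 2.6 to 19.5 RPKTM in RevDKO with a median of 7.50, and 5.64 to 43.4 in RevScapTKO with a median of 15.5. Its difference of 0.86 ± 0.28 (log2, SE) passed (limma adjusted p = 0.0249) but no longer did so without the RevDKO library ZT10 replicate 3 (adjusted p = 0.0596), or without RevScapTKO replicate 2 at ZT4 (0.0554), ZT10 (0.0574) or ZT22 (0.0601). Acot2, Acot3, Acot4, Acot8 and Acot12 had differences of -0.45, -0.60, -0.33, -0.24 and -0.15 on the log2 scale and did not pass (limma adjusted p = 0.156, 0.233, 0.262, 0.302 and 0.290). At single times 3 combinations were called, all lower: Acot11 at ZT4 and ZT22 (-1.20 and -1.44, log2; limma adjusted p = 0.0435 and 0.0341), and Acot13 at ZT4 (-1.49; limma adjusted p = 0.00627). Of all genes 4.86%, 0.735%, 1.14% and 1.78% were called lower at ZT4, ZT10, ZT16 and ZT22. Without RevScapTKO ZT4 replicate 2 only 1 of the 3 was called.

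Macrophage RNA moved with this comparison. The 12 macrophage markers, which include Clec4f and Cd5l, were all called higher in RevScapTKO than in RevDKO hepatocyte libraries, with a median difference of 1.04 on the log2 scale. Their summed level was 262 to 3445 RPKTM in Control, 455 to 2644 in RevDKO and 1034 to 6690 in RevScapTKO, and none of the 12 was at 0 in any of the 36 libraries. Stellate cell markers (4 of 5 called higher) and endothelial markers (3 of 5) moved the same way. With the macrophage marker level as a covariate none of the 9 members was called in RevScapTKO against RevDKO, and 347 instead of 3498 of all genes were. The differences were -0.37 for Acot1, -0.44 for Acot11, -0.46 for Acot13 and 0.46 for Acot9 (limma adjusted p = 0.785, 0.494, 0.395 and 0.718). They kept their directions. The marker level was itself higher in RevScapTKO, so this fit does not separate macrophage RNA from genotype. The falls of Acot1 to Acot4 in RevDKO against Control were as large with the covariate, at -2.57, -1.21, -3.57 and -1.43 on the log2 scale. Across the 36 libraries the marker level had a Pearson r of -0.72 with Acot13, 0.43 with Acot9, -0.12 with Acot11 and -0.28 with Acot4. The libraries share genotype and time groups, and for deviations from the 12 group means these values were -0.43, 0.28, -0.39 and 0.20.

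**Figure D2:**
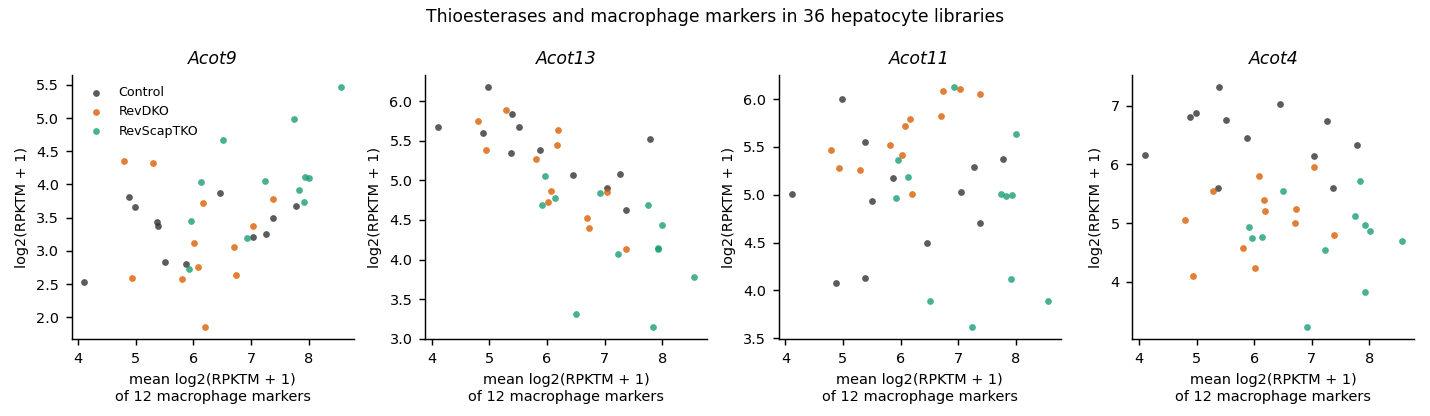
Level of 4 thioesterases (log2(RPKTM + 1)) in each of 36 hepatocyte libraries against the mean log2(RPKTM + 1) of 12 macrophage markers in the same library, coloured by genotype. Acot13 falls along the axis (r = -0.72), whereas Acot4 (r = -0.28) is lower in RevDKO than in Control over overlapping marker levels (4.79 to 7.38 and 4.11 to 7.78), and RevScapTKO reaches higher ones (5.92 to 8.56).

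RevScapTKO against Control, which shares its samples with the comparisons above, combined both deletions. The 7 members called were all lower, where 35.9% of all genes were called and 18.7% were lower. The median difference was -1.15 on the log2 scale for the members and -0.04 for all genes. Markers of other cells moved here too: all 12 macrophage markers (median difference 1.21, log2), 4 of 5 stellate cell markers, 4 of 5 endothelial markers and Sox9 (1.30) were called higher in RevScapTKO. With the macrophage marker level as a covariate 5 of 9 members were called, and 786 instead of 4789 of all genes (5.9%). Here too the marker level differed with genotype, and the fit does not separate the 2. Acot3 had the largest difference, -4.16 ± 0.37 (log2, SE; limma adjusted p = 2.84e-10), with RevScapTKO levels from 0 to 8.78 RPKTM and 4 of 12 libraries listed at 0. Acot1 followed with -3.57 ± 0.30 (limma adjusted p = 5.55e-11) and a RevScapTKO mean of 7.41% of Control. Acot4 differed by -1.74 ± 0.21 and Acot2 by -1.67 ± 0.23 (limma adjusted p = 2.31e-07 and 2.40e-06). The type I genes thus again had the largest differences, and Acot1 and Acot4 did not overlap with Control at any time.

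Among the type II genes Acot13 differed by -1.15 ± 0.17 (log2, SE; limma adjusted p = 5.72e-06), and its RevScapTKO values lay below all Control values at each of the 4 times. With the covariate its difference was -0.76 (limma adjusted p = 0.0418). Acot8 differed by -0.63 ± 0.17 (limma adjusted p = 0.00380), with RevScapTKO libraries at 9.51 to 29.6 RPKTM against 24.3 to 42.8 in Control. Acot12 differed by -0.30 ± 0.10 (limma adjusted p = 0.0215), with 183 to 512 against 216 to 471. With the macrophage marker covariate the differences of Acot8 and Acot12 were -0.29 and -0.21 and no longer passed (limma adjusted p = 0.533 and 0.482), and that of Acot12 was also lost without RevScapTKO ZT10 replicate 2 (0.0543). Acot9 was higher by 0.71 ± 0.28, just short of the threshold (limma adjusted p = 0.0508), and by 0.27 with the covariate (0.784), while Acot11 differed by -0.17 ± 0.19 (limma adjusted p = 0.519). Acot1, Acot2, Acot3, Acot4, Acot12 and Acot13 were lower without overlap at 3 or more times, as were 5.3% of all genes. At single times 16 of 36 combinations were called: 5 at ZT4, 4 at ZT10, 4 at ZT16 and 3 at ZT22, where 9.61%, 2.33%, 2.27% and 2.49% of all genes were called lower. All were lower, and apart from Acot13 at ZT4 all were of Acot1 to Acot4.

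**Figure D3:**
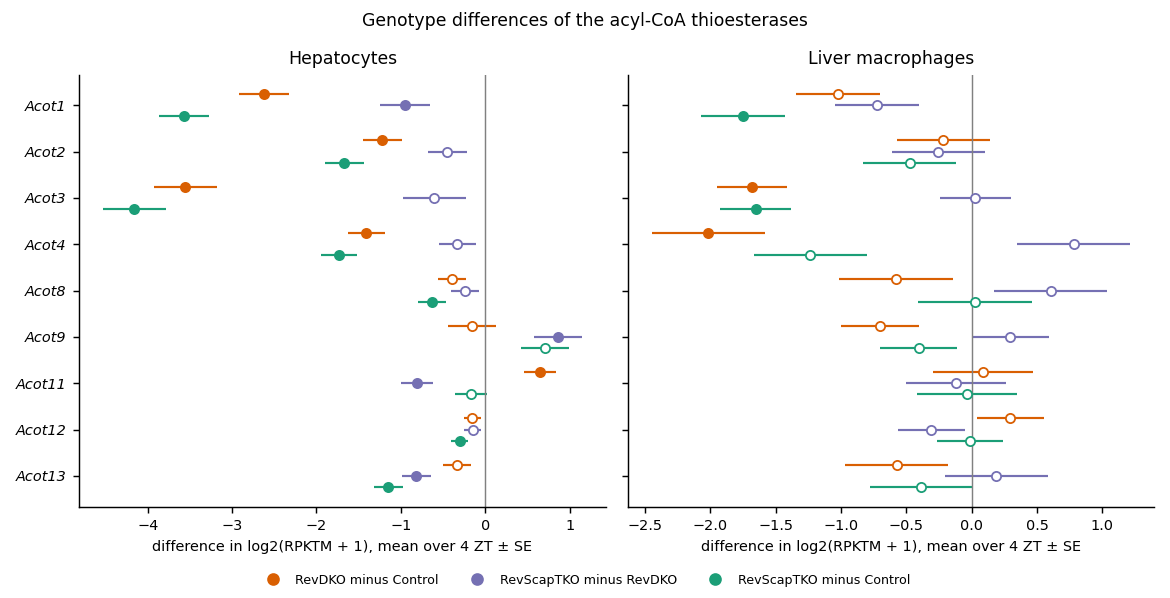
Differences between genotypes in log2(RPKTM + 1), averaged over 4 times, for the 9 thioesterases in hepatocytes (left) and liver macrophages (right), with bars for the SE of the limma fit. Filled points passed an adjusted p of 0.05, and in hepatocytes the falls of Acot1 to Acot4 against Control range from -1.22 to -4.16.

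Other genes of acyl-CoA metabolism were counted by lists. The lists were chosen with earlier results of these data known. In RevDKO against Control 4.43% of all genes were called. The 5 further thioesterases measured above the filter (Acot7, Them4, Ppt1, Ppt2 and Baat) had 1 fall in RevDKO against Control, that of Them4 (-0.49 ± 0.14, log2, SE; limma adjusted p = 0.0402). None of 14 acyl-CoA synthetases, which make the substrates of thioesterases, was called there, with a list median of -0.06. Of 18 peroxisomal acyl-CoA genes 7 fell and none rose, led by Acaa1b, a peroxisomal thiolase (-1.81 ± 0.22; limma adjusted p = 9.08e-07), Decr2 (-0.64) and Acaa1a (-0.54). Of 17 measured PPARα pathway genes 8 fell and none rose, led by the fatty acid ω-hydroxylases Cyp4a14 (-1.95 ± 0.41; limma adjusted p = 0.00241) and Cyp4a10 (-1.73 ± 0.28; limma adjusted p = 8.99e-05), and by Vnn1 (-1.28). The list medians were -0.24 and -0.48 on the log2 scale. Cyp4a10 was also low in the Control library ZT4 replicate 3, at 148 RPKTM.

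In RevScapTKO against RevDKO 8 of 14 synthetases fell and 1 rose, where 26.2% of all genes were called. With the macrophage marker level as a covariate 2.6% of all genes were called. List counts with the covariate are not given here. Acsl3 fell by 3.72, Acss2, the cytosolic acetyl-CoA synthetase and an SREBP target, by 2.53 and Acss3 by 2.44 on the log2 scale, while Acsm5 rose by 0.37. Of the peroxisomal genes 6 fell, among them Ehhadh (-1.15) and Acaa1b (-1.03), and 1 rose (Crot, 0.57). Of the PPARα pathway genes 6 fell, led by Cyp4a14 (-2.93), Cyp4a10 (-2.76) and Cyp4a32 (-0.86), and 3 rose: Fgf21, a fasting hormone (1.63), Cidec (1.04) and Cpt1a, which admits fatty acids to mitochondria (0.44). Acot7 was the 1 further thioesterase called (-0.54). The PPARα pathway genes called in this comparison, without the covariate, moved in both directions. In RevScapTKO against Control the counts were 3 of 5 thioesterases, 10 of 14 synthetases, 12 of 18 peroxisomal genes and 10 of 17 PPARα pathway genes lower, with 0, 0, 1 (Abcd2) and 1 (Fgf21) higher. Of all genes 35.9% were called there, and 5.9% with the macrophage marker covariate.

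In the LM libraries all 9 members were measured. Control means in their own table were 41.7 ± 21.3 RPKTM for Acot12, 30.7 ± 16.8 for Acot9, 29.2 ± 14.5 for Acot1, 15.8 ± 13.9 for Acot4, 15.1 ± 7.87 for Acot11, 12 ± 5.27 for Acot2, 11.3 ± 5.45 for Acot13 and 10.9 ± 6.76 for Acot8 (SD, n = 12 each), all overlapping with their neighbours. Acot3 was listed at 0 to 8.69. Acot9 followed the macrophage markers across the 36 LM libraries (r = 0.73, and 0.73 for deviations from group means), whereas Acot12 ran against them (r = -0.56 and -0.79). By its mean over the 12 Control libraries Acot12 was first in both cell types, but in LMs Acot9 had the higher mean at ZT10 (48.5 against 37.3), and Acot1 (45.6) and Acot9 (31.0) did at ZT22 (27.8 for Acot12). Acot9, among the lowest members in hepatocytes, was among the highest here, in tables that were normalized apart.

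RevDKO against Control called 2 of 9 members in LM libraries, Acot3 and Acot4, both lower, where 0.574% of all 13947 genes were called and 0.172% were lower. The median difference was -0.58 on the log2 scale for the members and -0.04 for all genes. Acot4 was 2.82 to 50.9 RPKTM in Control with a median of 12.5 and 0 to 10.4 in RevDKO with a median of 3.89, so the ranges overlapped. Its difference of -2.01 ± 0.43 (log2, SE; limma adjusted p = 0.0173) no longer passed without a filter on low genes (adjusted p = 0.0622) or with only the Control and RevDKO libraries in the fit (0.0597). Acot3 was 0.765, 1.0 and 0 in Control at ZT4, 2.68, 8.69 and 5.02 at ZT10, 2.58, 4.67 and 7.63 at ZT16, and 3.08, 0 and 3.84 at ZT22. It was listed at 0 in 11 of 12 RevDKO libraries, with 1.23 in the other, and in 10 of 12 RevScapTKO libraries, with 0.378 and 1.06 in the others. It passed the filter on low values through 3 Control libraries alone (ZT10 replicates 2 and 3, ZT16 replicate 3), and without any 1 of them it was not tested, so its calls (limma adjusted p = 0.000532 in RevDKO and 0.000157 in RevScapTKO against Control) rest on the group where it is high. The 12 hepatocyte markers summed to 80462 to 3210140 RPKTM in Control and 71331 to 166132 in RevDKO, and none of the 12 was at 0. With their level as a covariate the differences were -1.71 for Acot3 and -2.05 for Acot4. In the hepatocyte libraries the same genes differed by -3.56 and -1.41. The covariate follows the amount of hepatocyte RNA and not its Acot3 or Acot4 content, so this fit cannot tell the source cells. Which cells these differences came from was not tested. The 12 macrophage markers had a median difference of -0.54 in the same comparison, and none was called. Acot1 was 16.5 to 65.9 in Control and 2.76 to 22.5 in RevDKO (-1.03 ± 0.32; limma adjusted p = 0.153).

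RevScapTKO against Control called Acot1 and Acot3 lower, where 3.76% of all genes were called and 1.38% were lower. Acot3 entered this test through Control libraries alone, as given above, so its call adds nothing beside these shares. The median difference was -0.41 on the log2 scale for the members and -0.04 for all genes. Acot1 was 24.9, 30.0 and 18.9 RPKTM in Control at ZT4, 25.2, 16.5 and 17.5 at ZT10, 29.7, 28.9 and 22.4 at ZT16, and 21.1, 65.9 and 49.8 at ZT22. In RevScapTKO it was 4.67, 12.2 and 4.71 at ZT4, 14.3, 4.26 and 2.75 at ZT10, 12.2, 19.2 and 2.16 at ZT16, and 10.8, 17.7 and 3.35 at ZT22. The genotypes did not overlap at any of the 4 times, as was the case at 3 or more times for 0.825% of all genes in this direction. The difference was -1.75 ± 0.32 (log2, SE; limma adjusted p = 0.000741), and it was -2.05 with the hepatocyte marker covariate. The 12 hepatocyte markers had a median difference of -0.27 in this comparison, with 1, Cps1, called lower. The 12 macrophage markers had a median difference of -0.55 with none called, and across the 36 LM libraries their level had a Pearson r of 0.34 with Acot1 (0.29 for deviations from group means). For the hepatocyte marker level the values with Acot1 were -0.044 and -0.60. Sox9 was higher by 1.91 ± 0.47 (log2, SE; limma adjusted p = 0.0154). The hepatocyte marker covariate follows the amount of hepatocyte RNA and not its Acot1 content. In the hepatocyte libraries the RevScapTKO mean of Acot1 was itself 7.41% of Control, so that fit cannot tell the source cells. Which cells the Acot1 difference came from was not tested, nor was the part of the other markers.

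RevScapTKO against RevDKO called none of the 9 members in LM libraries by limma, with 1 member, Acot1, at an unadjusted p under 0.05 (-0.73 ± 0.32, log2, SE; adjusted p = 0.211) and 3% of all genes called. With the hepatocyte marker covariate Acot1 was called (-1.13; limma adjusted p = 0.0122), but so were 10.1% of all genes, and 1 of 9 members is near that share. At single times Acot3 alone was called, at ZT10 in both comparisons with Control (limma adjusted p = 0.0478 for RevDKO and 0.0291 for RevScapTKO) and at ZT16 for RevScapTKO (0.0351), each against knockout groups in which all 3 libraries were listed at 0. These calls too rest on a gene that passed the filter through Control libraries alone. Of all genes 0%, 0.0215%, 0.0359% and 0% were called lower at ZT4, ZT10, ZT16 and ZT22 in RevDKO against Control, 0.1%, 0.136%, 0.172% and 0.265% in RevScapTKO against RevDKO, and 0.215%, 0.151%, 0.158% and 0.108% in RevScapTKO against Control. Of the lists, 4 of 15 synthetases were lower in RevScapTKO than in RevDKO LM libraries, led by Acss2 (-2.38), Acsl3 (-2.03) and Slc27a5 (-1.73), and 3 of 18 peroxisomal genes, among them Ehhadh (-1.24) and Acaa1b (-1.18). Of 17 PPARα pathway genes 4 were lower, led by Cyp4a14 (-2.78), Cyp4a10 (-2.43) and Cyp4a32 (-1.63), and Fgf21 was higher (2.74). In RevDKO against Control Cyp4a14 (-1.88) and Cyp4a10 (-1.73) were the only genes of the 4 lists called, where 0.574% of all genes were. In the hepatocyte libraries these 2 genes differed by -1.95 and -1.73. In RevScapTKO against Control 0 of 6 further thioesterases, 5 synthetases, 4 peroxisomal genes and 3 PPARα pathway genes were lower, and Fgf21 was higher (3.62). Of all genes 3.76% were called there. The LM libraries also held hepatocyte RNA, and which cells these list differences came from was not tested.

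**Figure D4:**
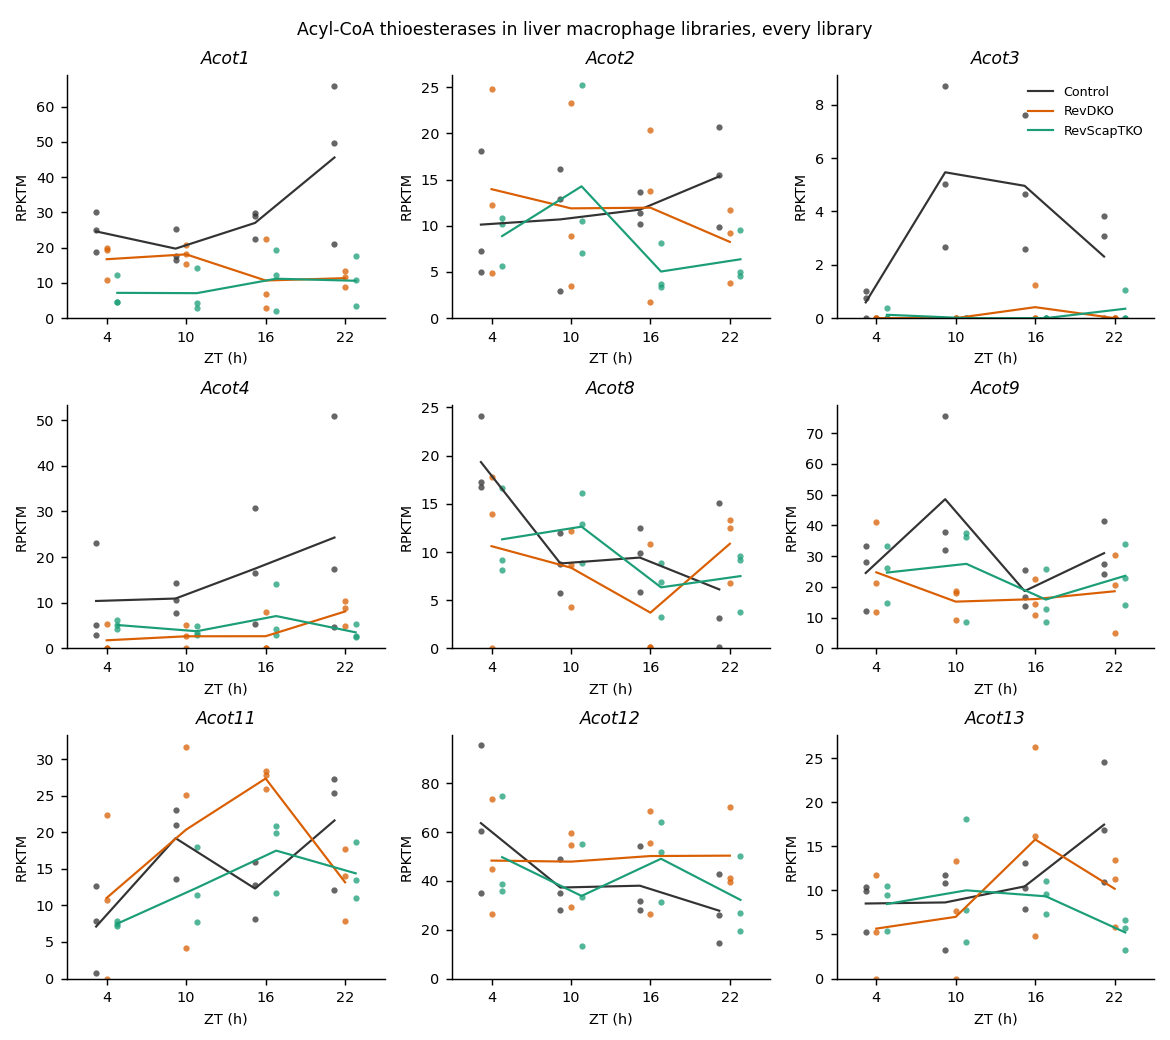
Transcript level (RPKTM, linear axes from 0) of the 9 thioesterases against zeitgeber time in the liver macrophage table, with points for single libraries and lines through the means. Acot1 in RevScapTKO (green, 2.16 to 19.2) lies below Control (dark, 16.5 to 65.9) at each time, and Acot3 is at 0 in 11 of 12 RevDKO libraries.

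Daily rhythms were called with the rank test JTK_CYCLE. The 12 libraries of a genotype were entered 2 times in a row, which lowers p without adding data, and results with the series entered once are given beside it. In Control hepatocytes Acot1, Acot3, Acot4, Acot12 and Acot13 were called rhythmic (29% of all genes were). With the series entered once 2 remained, Acot12 and Acot13, where 10.2% of all genes were called. Acot12 was 401 to 471 RPKTM at ZT4 and 216 to 290 at ZT22, with a peak estimated at ZT7 (JTK adjusted p = 0.0303 entered once), and Acot13 was 49.9 to 71.6 at ZT10 and 23.7 to 44.9 at ZT22, with a peak at ZT10 (0.0273). Acot3 ranged furthest, with its highest time mean 5.74 times its lowest, but it was not called when entered once.

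In RevDKO hepatocytes Acot2, Acot3, Acot4, Acot11, Acot12 and Acot13 were called (29.7% of all genes), and with the series entered once Acot11 and Acot12 (8.28%). Acot11 peaked at ZT19, with 55.6 to 66.7 RPKTM at ZT22 against 37.2 to 45.0 at ZT4 (JTK adjusted p = 0.0152 entered once), and Acot12 again peaked at ZT7 (0.0152). In RevScapTKO hepatocytes Acot1 and Acot11 were called (20.8%), and Acot1 with the series entered once (2.66%), with 1.06 to 1.7 at ZT4 and 4.43 to 13.3 at ZT16. Whether the daily pattern itself differed between genotypes was tested directly with limma, and no member was called in any of the 3 comparisons in hepatocytes or LMs. In hepatocytes 0, 2 and 2 members had an unadjusted p under 0.05 for RevDKO against Control, RevScapTKO against RevDKO and RevScapTKO against Control, and the lowest adjusted p was 0.565, for Acot12. Of all genes 0.203%, 0% and 0.188% were called in these comparisons, and 0% in each LM comparison, where 0, 0 and 1 members had an unadjusted p under 0.05. A rhythm called in 1 genotype and not in another is therefore not shown to differ between them.

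In LM libraries JTK_CYCLE called Acot1 and Acot3 in Control (20.2% of all genes), Acot11 in RevDKO (28.2%), and Acot2, Acot8 and Acot11 in RevScapTKO (15.4%). With the series entered once none was left in Control (2.41% of all genes) or RevDKO (4.83%), and Acot11 in RevScapTKO was (1.89%; JTK adjusted p = 0.0273), at 7.18 to 7.87 RPKTM at ZT4 and 11.7 to 20.9 at ZT16. Its peak lay at ZT16, compared with ZT13 in RevScapTKO hepatocytes. A cosinor fit with limma within each genotype called none of the 9 members in any of the 8 sets of libraries, while it called 8.29%, 4.08%, 0.683% and 1.85% of all genes in Control, RevDKO, RevScapTKO and ScapKO hepatocytes and 0.0502%, 2.53%, 0.0789% and 0% in the LM libraries.

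ScapKO libraries have no control in their table, and their values describe levels and daily patterns alone. In ScapKO hepatocytes Acot12 was again highest, with 594 to 772 RPKTM, followed by Acot4 with 65.7 to 265 and Acot13 with 26.1 to 144. JTK_CYCLE called all 4 type I members, Acot1 to Acot4, and no type II member (19.1% of all genes). Acot8, a type II member, passed the rank test (JTK adjusted p = 0.0128) and was not called because its highest time mean was only 1.36 times its lowest, where a call needs 1.5. Acot1 was 24.7, 16.4 and 10.7 at ZT4, 33.6, 19.1 and 25.9 at ZT10, 54.3, 44.6 and 56.2 at ZT16, and 26.9, 21.3 and 44.7 at ZT22. Acot3 was 14.3, 37.7 and 5.53 at ZT4 and 89.6, 39.9 and 92.4 at ZT16, and Acot4 was 143, 132 and 65.7 at ZT4 and 242, 209 and 265 at ZT16. The mean at ZT16 was the highest of the 4 times for these genes. With the series entered once Acot1 and Acot4 remained (JTK adjusted p = 0.0136 and 0.0303), where 4.95% of all genes were called. Peaks were estimated at ZT16 for Acot1 and Acot3 and ZT13 for Acot2 and Acot4. The library that went against its label held Acot1 at 21.3, Acot2 at 3.13, Acot3 at 15.0, Acot4 at 130, Acot8 at 31.9 and Acot13 at 26.1, the values of Acot2, Acot8 and Acot13 being the lowest of the 12. Without it Acot13 was 62.0 to 144, Acot8 34.1 to 70.9 and Acot2 8.46 to 18.1, the other 6 members kept their ranges, and 4 members were called rhythmic.

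**Figure D5:**
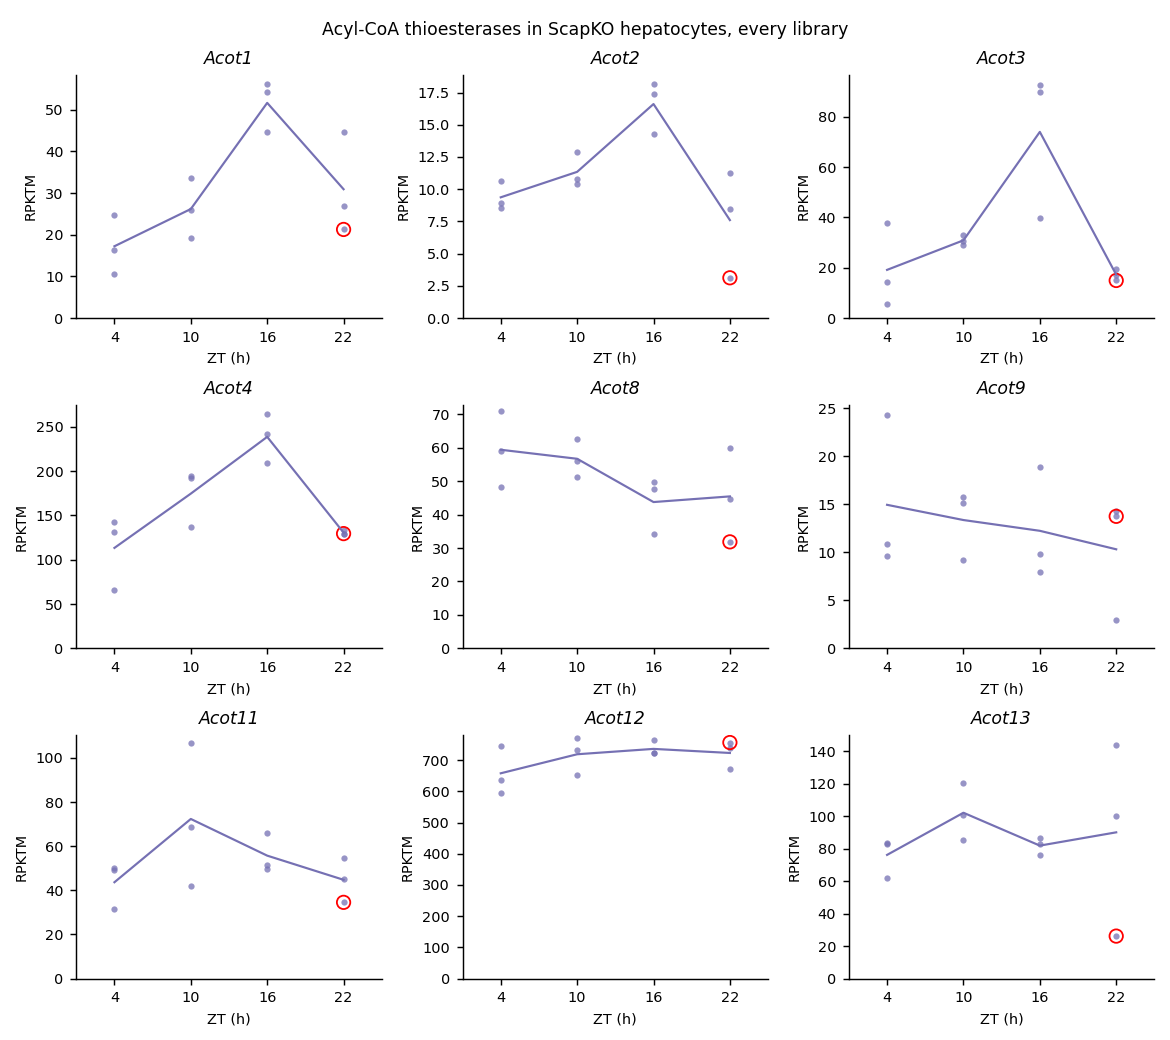
Transcript level (RPKTM, linear axes from 0) of the 9 thioesterases against zeitgeber time in ScapKO hepatocytes, with points for single libraries, lines through the means and red circles around the library that went against its label. Acot1 to Acot4 had their highest mean at ZT16, where Acot1 was 44.6 to 56.2.

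In ScapKO LM libraries other than ZT22 replicate 2, Acot9 was 133 to 213 RPKTM, Acot1 80.5 to 158, Acot2 68.1 to 121 and Acot12 53.2 to 235. Acot11 was 45.8 to 109, Acot8 44.2 to 86.9, Acot4 21.1 to 61.3, Acot13 19.7 to 51.9 and Acot3 0 to 48.9. The library ZT22 replicate 2, low in macrophage markers, held Acot9 at 82.0, Acot1 at 9.84, Acot2 at 14, Acot13 at 15.6, Acot4 at 84.0 and Acot12 at 629. Acot9, Acot1, Acot2 and Acot13 were thus lower there than in all other libraries and Acot4 and Acot12 higher, while Acot3 (16.1), Acot8 (53.3) and Acot11 (82.0) lay within the range of the others. No member was called rhythmic with all 12 libraries (21.4% of all genes, and 3.12% with the series entered once), and 1 was called without that library. That library was not alone in this, since 1 member was called without any 1 of 7 of the 12 libraries.

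Within hepatocytes of the 3 genotypes Acot1 to Acot4 varied together over all libraries, and less so within groups. Over the 36 libraries, which share genotype and time, Pearson's r of log2(RPKTM + 1) was 0.86 for Acot3 with Acot4, 0.82 for Acot2 with Acot3, 0.80 for Acot1 with Acot3 and 0.75 for Acot1 with Acot2. For deviations from the 12 group means the same pairs had 0.54, 0.60, 0.31 and 0.39. The remaining pairs were Acot2 with Acot4 (0.77, deviations 0.38) and Acot1 with Acot4 (0.70, deviations 0.10). Some pairs with type II genes were also positive over all libraries, such as Acot1 with Acot8 (0.62, deviations 0.25) and Acot2 with Acot13 (0.59, deviations 0.0094). Acot8 and Acot9 ran against each other (-0.64, and -0.73 for deviations). Acot1 to Acot4 also have stretches of sequence in common, as described above, and whether reads from these were counted for more than 1 gene is not given in the sources used here.

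Outside the family, the genes most like Acot1 over the 36 hepatocyte libraries were Ces1d (r = 0.87, deviations 0.11), Cyp4a12a (0.86, 0.31) and Cyp4a10 (0.86, 0.61). For Acot2 they were Aldh3a2, a fatty aldehyde dehydrogenase (0.85, 0.59), Adh1 (0.83, 0.32) and Dlec1 (0.81, 0.30). For Acot3 they were Nat8f5 (0.86, 0.39), Adh1 (0.84, 0.32) and Ces1d (0.83, 0.16), and for Acot4 Adh1 (0.80, 0.23), Ppp1r1b (0.78, 0.30) and Sult1a1 (0.78, 0.68). Adh1, an alcohol dehydrogenase, was thus among the 3 most alike genes of Acot2, Acot3 and Acot4. For the type II members they were Mrpl53 (0.81, 0.79), Retsat (0.75, 0.66) and Tomm6 (0.74, 0.61) for Acot8, and Sat1 (0.82, 0.80), Gnb1 (0.74, 0.73) and Slc48a1 (0.74, 0.72) for Acot9. They were Fam151a (0.89, 0.87), which overlaps Acot11 on the opposite strand, Lrtm1 (0.81, 0.69) and Mfsd4b1 (0.76, 0.55) for Acot11. For Acot12 they were Abca8a (0.77, 0.46), Acad11 (0.75, 0.74) and H2afv (0.72, 0.62). For Acot13 they were Slc25a13 (0.88, 0.75), Pank1, a coenzyme A synthesis enzyme (0.88, 0.69) and Pdcd6 (0.88, 0.77).

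The promoters of the 4 genes that fell together are shown because they allow motifs of the named regulators to be looked for. The 100 bases before the start of each, from RefSeq on GRCm38.p6, all on chromosome 12 and the plus strand, are chr12:84009402-84009501 for Acot1, chr12:83987761-83987860 for Acot2, chr12:84052044-84052143 for Acot3 and chr12:84038279-84038378 for Acot4. Capitals mark the motif AGGTCA, the core of nuclear receptor sites, or the E-box CACGTG, on either strand.

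Acot1: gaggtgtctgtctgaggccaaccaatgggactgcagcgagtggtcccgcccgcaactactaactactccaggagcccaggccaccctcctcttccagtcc
Acot2: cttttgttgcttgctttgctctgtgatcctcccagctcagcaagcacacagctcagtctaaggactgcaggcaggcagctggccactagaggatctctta
Acot3: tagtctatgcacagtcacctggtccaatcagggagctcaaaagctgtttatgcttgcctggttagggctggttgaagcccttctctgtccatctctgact
Acot4: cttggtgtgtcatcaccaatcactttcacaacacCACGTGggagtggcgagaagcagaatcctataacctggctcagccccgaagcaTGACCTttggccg

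Within 250 bases before the start, AGGTCA occurred in Acot4 (at -13) and Acot12 (at -110) of the 8 members with a promoter sequence, and in 14% of the 32851 promoters searched. The promoters searched did not cover every chromosome. CACGTG occurred in Acot4 (at -66) and in the second promoter of Acot11 (at -154), and in 6.02% of the promoters searched. A repeat of AGGTCA after 1 spacer base, as bound by PPARα (0.0335% of promoters), AGGTCA directly after AANT, as bound by REV-ERBs (0.177%), and the SREBP type motif TCACNCCAC (1.05%), each searched on both strands, were not in these windows of any member, and the D-box TTANGTAA (2.06%) occurred in Acot9 (at -171). Every match of the first 2 of these also counts as AGGTCA.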

How the data were processed

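RNA of 96 libraries was depleted of ribosomal RNA and sequenced as stranded libraries. Per the submitters' processing notes and methods, reads were aligned with STAR to mm9 and counted with HOMER over RefSeq transcripts; versions and the strand setting are not given in the sources used here. The deposited values are of the RPKM kind, RPKTM (reads per kilobase per 10000000 reads), which the authors quantile normalized within each of 4 tables (36 and 12 libraries per cell type), so depth is unknown, an overall shift would be hidden, and precision rests on the spread between replicates. Replicates are separate labelled samples; where they were not separate mice, p-values measure technical spread only. The ScapKO hepatocyte libraries are named hepatocytes in their titles and macrophages in another label; titles were followed.

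Genes were kept where at least 3 libraries exceeded 5 RPKTM. log2(RPKTM + 1) was fitted with limma 3.58.1 (R 4.3.3, mean-variance trend, 1 mean per genotype and time, 36 libraries), with Benjamini-Hochberg adjustment over all genes kept and a threshold of 0.05; fold changes on this scale understate those of low genes. A changed rhythm was an F test of 24 h cosine and sine terms. JTK_CYCLE was written in Python 3.11.15 (7 patterns at 18 h and 24 h, Bonferroni adjusted; called at 24 h with a highest to lowest time mean over 1.5 and at least 2 libraries over 5 RPKTM). Scripts were tested on simulated data. Sequences were compared with Biopython 1.88 on mm9 transcripts.

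All 9 members are named in every comparison; of each list up to 3 called genes per direction with the largest change are named, and 3 most alike genes per member. The values of 1 list gene are not reported here. The members and lists were chosen with earlier results of these data known. Alternatives were another added constant (0.1, 5), no filter, summed transcripts, a replicate block, only the genotypes compared, a marker covariate, and leaving out each library.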

Additional observations from a re-analysis of the deposited data

How the results depend on the processing

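Directions of called members did not reverse under any alternative; every reversed value belongs to a difference that was not called. With the marker covariate (macrophage markers in hepatocytes, hepatocyte markers in LMs) Acot11 and Acot8 in hepatocytes turned to 0.24 (RevScapTKO minus Control) and 0.073 (RevScapTKO minus RevDKO), and Acot12 in LMs to 0.22 (RevScapTKO minus Control). With 0.1 RPKTM added, Acot11 in LMs turned to -0.11, 0.021 and 0.13 (RevDKO minus Control, RevScapTKO minus Control, RevScapTKO minus RevDKO), and with 5 added, Acot13 in LMs to -0.014 (RevScapTKO minus RevDKO) and Acot8 to -0.057 (RevScapTKO minus Control). Leaving out 1 library moved uncalled differences in LMs across 0: Acot11 from -0.15 to 0.42, -0.26 to 0.11 and -0.46 to 0.11 in the order above, Acot12 -0.12 to 0.12 and Acot8 -0.21 to 0.26 (RevScapTKO minus Control), Acot13 -0.10 to 0.38 and Acot3 -0.058 to 0.13 (RevScapTKO minus RevDKO), and Acot2 -0.38 to 0.0058 (RevDKO minus Control); in hepatocytes Acot9 went from -0.31 to 0.0046 (RevDKO minus Control).

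With the marker covariate members called fell from 4 to 0 (RevScapTKO minus RevDKO, hepatocytes) and rose from 0 to 1 (same comparison, LMs), and calls at single times fell from 16 to 10 and 3 to 0 in hepatocytes (RevScapTKO minus Control and minus RevDKO) and 1 to 0 in LMs (RevDKO minus Control). Without a filter 1 instead of 3 single time calls (hepatocytes, RevScapTKO minus RevDKO) and 1 instead of 2 members (LMs, RevDKO minus Control) were called. With only the genotypes compared 1 instead of 2 members were called in LMs (RevDKO minus Control), and the single time calls of both LM comparisons with Control were 0; with 0.1 added they were 0 and 0, and with 5 added 0 and 1. Leaving out 1 library gave 4 to 10 single time calls for RevDKO minus Control and 1 to 4 for RevScapTKO minus RevDKO in hepatocytes, 0 to 4 and 0 to 2 for the LM comparisons with Control (changed without 18 and 9 of the 24 libraries in turn, and 4 without RevDKO ZT16 replicate 3, which held the 1 nonzero Acot3 value of that genotype), and 1 to 2 and 1 to 3 members called there (1 without Control ZT10 replicate 2 or 3 or ZT16 replicate 3). The cause of these changes was not tested.

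Rhythm calls with the series entered once were 2, 2, 1 and 2 in Control, RevDKO, RevScapTKO and ScapKO hepatocytes and 0, 0, 1 and 0 in LMs, and 0 in each by the limma cosinor test; without a minimum ratio 1 member was called in ScapKO LMs. Leaving out 1 library gave 3 to 6 (Control; 3 without ZT10 replicate 2 or 3 or ZT22 replicate 3) and 1 to 3 (RevScapTKO; 1 without ZT4 replicate 2 or 3, ZT16 replicate 1 or ZT22 replicate 2 or 3) in hepatocytes, and 1 to 4 (Control; 1 without ZT10 replicate 2 or ZT22 replicate 2 or 3, 4 without ZT16 replicate 1), 0 to 1 (RevDKO; 0 without ZT10 replicate 3 or ZT16 replicate 1) and 0 to 1 (ScapKO; 1 without 7 of the 12 libraries in turn) in LMs. Same-numbered libraries did not all deviate together (only 3 to 8 of 12 pairs per comparison had a correlation over 0.1). The median correlation was positive in every comparison (0.023 to 0.14). Of 24 libraries 12 to 17 correlated best with their own number, where random choice among 3 would match 1 in 3. The labels name no shared animal or batch, so the numbers were not taken as pairs, and what they share was not tested. With a replicate block the counts of members called in hepatocytes were 5, 4 and 8 (RevDKO minus Control, RevScapTKO minus RevDKO, RevScapTKO minus Control). They had been 5, 4 and 7. Acot9, which was highest in replicate 2 in 9 of the 12 hepatocyte groups, passed in the last (limma adjusted p = 0.0179). The block changed no other call of a member's mean difference. Depth could not be assessed.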
